A study of Homo sapiens with 9 samples.

Results

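Aminoacyl-tRNA synthetases were followed across 9 cultures of HuH-7, a human hepatocellular carcinoma line, each sequenced as 1 ribosomal-RNA-depleted total RNA library. The 35 genes were taken by symbol. Of these, 19 encode cytosolic enzymes or subunits of them and 16 encode mitochondrial enzymes, out of 63677 gene identifiers in the count files. All 35 were among the 18237 genes that reached 1 CPM, counts scaled to library size, in at least 2 libraries. The treated cultures received acetaminophen at 10 mM, acetaminophen with exosomes, acetaminophen with 2 mM caffeine, exosomes obtained from 1 ml of serum, caffeine, arsenic at 5 µM or at 15 µM, or 5 µM arsenic together with 5 µM copper. The remaining culture, called control here, was untreated. All 9 were the same cell line with no genetic change named in the labels, and the labels give no exposure times. There was 1 library per condition, so a ratio between 2 libraries carries counting error only and has no replicate check.

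Each synthetase joins 1 amino acid to its transfer RNA before the ribosome uses it. Cytosol and mitochondria run separate translation systems in human cells, and most amino acids have a separate nuclear-encoded enzyme for each, named with a final 1 and 2. GARS1 and KARS1 are exceptions, since each gene makes both the cytosolic and the mitochondrial enzyme, and EPRS1 carries glutamyl and prolyl activities in 1 protein. Many cytosolic synthetase genes are known targets, largely from work in mouse cells, of ATF4 and CHOP. These transcription factors are made when stress-activated kinases phosphorylate eIF2, and they bind a composite C/EBP-ATF response element. The 13 cytosolic genes placed in that class here are AARS1, CARS1, EPRS1, GARS1, IARS1, LARS1, MARS1, NARS1, SARS1, TARS1, VARS1, WARS1 and YARS1. The other 6 cytosolic genes are FARSA, FARSB, HARS1, KARS1, QARS1 and RARS1.

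Counts assigned to genes ranged over the libraries between 658725 (acetaminophen with exosomes) and 8227906 (caffeine). The acetaminophen and arsenic 5 µM libraries stood apart in composition: small nucleolar RNA took 11.5% and 35.5% of their counts, against 3.41% to 8.35% in the other 7. Their gene levels also leaned towards AT-rich transcripts, with Pearson correlations across 10377 genes between GC content and deviation of -0.638 and -0.519. The other 7 had values from -0.118 in exosomes to 0.424 in arsenic with copper, with 0.385 in acetaminophen with caffeine and 0.263 in control. Control also had the strongest correlation of the 9 with log2 transcript length, at -0.4445. Genes are not independent replicates. Transcripts typical of liver were abundant in every library, with 9 hepatocyte markers summing to 0.945% to 4.23% of protein-coding counts, lowest in arsenic 15 µM. Markers of blood cells summed to between 0 and 3 counts.

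The response element was looked for because the cytosolic enzymes divided largely by class in arsenic. Its core, TGATGNAA or TTNCATCA on the other strand, was searched on both strands of RefSeq promoter windows (GRCh38.p14) that reach from 250 bases before a gene's start to 50 after it. A gene can have more than 1 window, and 30 of the 35 genes had any. LARS1, VARS1, YARS1, AARS2 and VARS2 had none. The core was present for 7 of 10 cytosolic genes of the ATF4/CHOP class, 0 of 6 other cytosolic genes and 1 of 14 mitochondrial genes, against 1217 of 27305 genes in the table (4.46%). It was also present for 4 of 17 genes with a window in the list of the ATF4 amino-acid response and 3 of 7 in the interferon list. Of the class, AARS1, CARS1, GARS1, IARS1 and TARS1 had the core and were at least 2 times control in arsenic 15 µM. EPRS1, SARS1 and WARS1 were so too, with windows but no core. MARS1 and NARS1 had the core and were under 2 times control. The class was drawn from knowledge of ATF4 and CHOP targets, in which this element plays a part, so these counts are a description. Each stretch shows the core in capitals with 20 bases on either side, in the direction of the gene.
AARS1: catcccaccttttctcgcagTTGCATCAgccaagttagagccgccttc
CARS1: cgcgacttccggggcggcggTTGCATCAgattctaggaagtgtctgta
GARS1: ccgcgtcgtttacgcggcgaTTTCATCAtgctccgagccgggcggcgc
IARS1: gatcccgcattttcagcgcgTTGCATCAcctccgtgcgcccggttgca
MARS1: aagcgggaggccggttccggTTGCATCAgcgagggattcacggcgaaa
NARS1: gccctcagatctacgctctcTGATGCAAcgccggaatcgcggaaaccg
TARS1: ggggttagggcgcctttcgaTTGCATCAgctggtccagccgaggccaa
YARS2: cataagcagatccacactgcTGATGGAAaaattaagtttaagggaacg
The stretches lie at chr16:70289666-70289713 (minus strand) for AARS1, chr11:3057398-3057445 (minus) for CARS1, chr7:30594825-30594872 (plus) for GARS1 and chr9:92293683-92293730 (minus) for IARS1. Those of MARS1, NARS1 and TARS1 lie at chr12:57488044-57488091 (plus), chr18:57621795-57621842 (minus) and chr5:33440947-33440994 (plus), and that of YARS2 at chr12:32756067-32756114 (minus). In CARS1, IARS1, MARS1, NARS1 and TARS1 the first base of the core fell between positions -13 and 15 relative to the start, where 1 is the first transcribed base. It fell at -33 in GARS1, -187 in AARS1 and -197 in YARS2. The letters TTGCATCA were shared by AARS1, CARS1, IARS1, MARS1 and TARS1, and NARS1 carried the same letters on the opposite strand.

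Cytosolic enzymes were the more abundant class in all 9 libraries. Levels are given as CPM scaled by the trimmed mean of M-values (TMM), which compares a gene between libraries; levels of different genes are set against each other only per kilobase of transcript. AARS1, the alanyl enzyme, had 484 CPM in acetaminophen, 468 with exosomes added, 966 with caffeine added, 516 in exosomes, 482 in caffeine, 651 in arsenic 5 µM, 1559.9 in arsenic 15 µM and 1299 in arsenic with copper, against 508 in control. Its arsenic 15 µM and copper values were the highest, followed by acetaminophen with caffeine, and the other 6 lay between 468 and 651. IARS1, the isoleucyl enzyme, had 265 CPM in acetaminophen, 209 with exosomes, 166 with caffeine, 356 in exosomes, 324 in caffeine, 695 in arsenic 5 µM, 563 in arsenic 15 µM and 454 with copper, against 248 in control. MARS1, the methionyl enzyme, had 216, 127 and 127 CPM in the acetaminophen libraries alone, with exosomes and with caffeine, 255 in exosomes, 184 in caffeine, 515 in arsenic 5 µM, 421 in arsenic 15 µM and 424 with copper, against 283 in control. IARS1 and MARS1 thus had their 3 highest values in the 3 arsenic libraries. Of the exon bases of MARS1, 11.3% overlap ARHGAP9 and DDIT3, and DDIT3, which encodes CHOP, was itself at 9.29 times control in arsenic 15 µM. KARS1, the lysyl enzyme of both compartments, differed in its order, with 352, 163 and 112 CPM in those acetaminophen libraries, 283 in exosomes, 204.5 in caffeine, 267 in arsenic 5 µM, 162 in arsenic 15 µM and 284 with copper, against 283 in control. Per kilobase, the median over libraries was 148 CPM for AARS1, 110.2 for KARS1, 87.7 for MARS1 and 69.5 for IARS1, and 10.9 for FARSB, a phenylalanyl subunit and the lowest cytosolic member.

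Among mitochondrial enzymes IARS2, the isoleucyl one, was the most abundant by mean. It had 234 CPM in acetaminophen, 113 with exosomes, 65.2 with caffeine, 142 in exosomes, 155 in caffeine, 189.7 in arsenic 5 µM, 36.2 in arsenic 15 µM and 102 with copper, against 100.4 in control. Its lowest value was the arsenic 15 µM library and its highest the acetaminophen library. RARS2, the arginyl enzyme, had 78.6, 47.1 and 33.9 CPM in the acetaminophen libraries alone, with exosomes and with caffeine, 60.6 in exosomes, 43.5 in caffeine, 59.5, 49.1 and 57.1 in arsenic 5 µM, arsenic 15 µM and arsenic with copper, against 58.9 in control. LARS2, the leucyl enzyme, had 73.0, 34.3 and 33.7 CPM in the same acetaminophen libraries, 63.6 in exosomes, 64.0 in caffeine, 61.7, 36.2 and 61.9 in the arsenic libraries in that order, against 45.4 in control. HARS2, the histidyl enzyme, had 70.2, 19.1 and 29.03 CPM, then 35.5 in exosomes, 33.5 in caffeine, 39.1, 14.7 and 40.8 in the arsenic libraries, against 56.0 in control. HARS2 shared with IARS2 its extremes, highest in acetaminophen and lowest in arsenic 15 µM. The other 12 had means of 4.15 to 36.6 CPM. SARS2, the seryl enzyme, is uncertain, because 80.1% of its exon bases overlap other annotated genes (GENCODE, GRCh38) and it had 0 to 57 counts per library. Its 0 counts in arsenic 5 µM allow up to 1.28 CPM there, against 3.86 CPM in control.

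**Figure D1:**
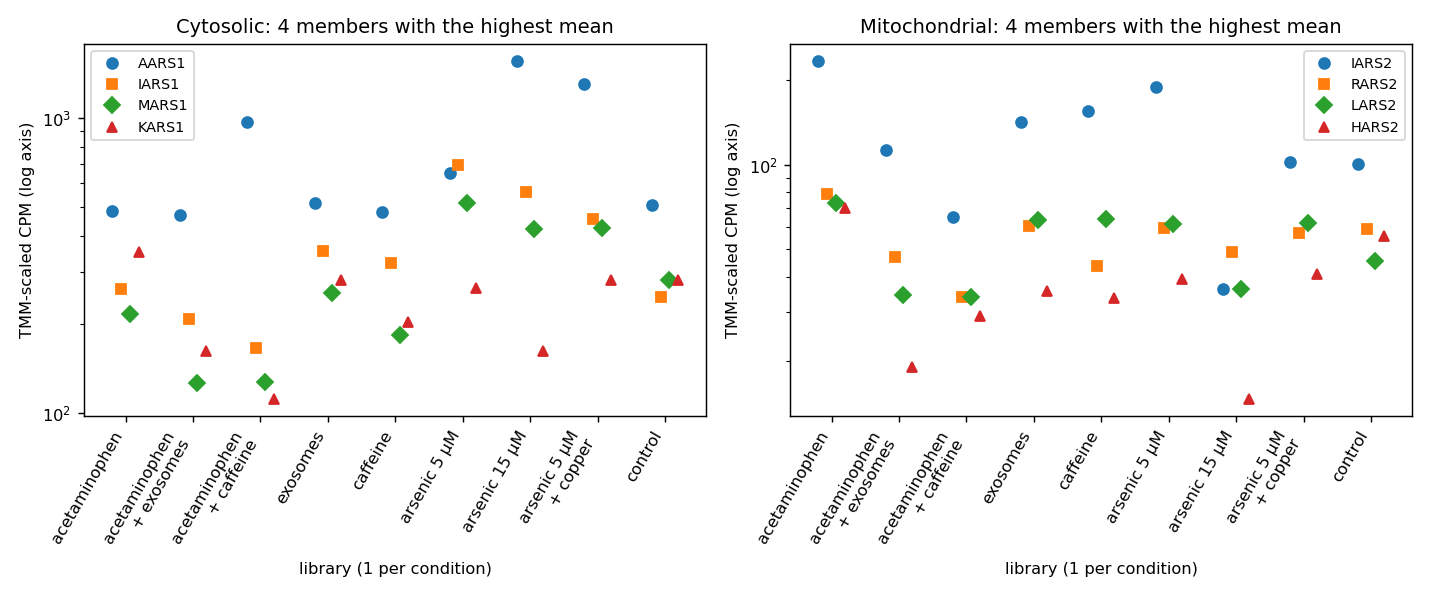
TMM-scaled CPM on a log axis for the 4 cytosolic (left) and 4 mitochondrial (right) synthetases with the highest mean, by library, with 1 point per library and markers set slightly apart along the horizontal axis. AARS1 reached 1559.9 CPM in arsenic 15 µM against 508 in control, while IARS2 was at 36.2 CPM against 100.4.

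In arsenic at 15 µM the family divided largely by class, where the classes were set with earlier results of these data known. A member is called apart where its ratio to the other library was at least 2 in either direction and the exact 95% counting interval excluded 1. Against control, 9 of 19 cytosolic genes were apart and higher and 2 were apart and lower, while 0 of 16 mitochondrial genes were higher and 5 were lower. Of all genes tested, 16.5% were apart and higher and 14.4% apart and lower in this pair. The 9 higher ones were AARS1, CARS1, EPRS1, GARS1, IARS1, SARS1, TARS1, WARS1 and YARS1, all of them in the ATF4/CHOP class, and the median log2 ratio was 1.26 over that class, -0.83 over the 6 other cytosolic genes and -0.67 over the mitochondrial genes, against -0.16 over all genes tested. None of the 6 others had a ratio above 1.

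CARS1, the cysteinyl enzyme, had the largest ratio. It had 376.5 CPM in arsenic 15 µM (1050 counts) against 56.9 in control (59 counts), a ratio of 6.56 (95% counting interval 5.09 to 8.75). GARS1, the glycyl enzyme, had 658 CPM against 151.5 in control, a ratio of 4.33 (3.69 to 5.14). WARS1, the tryptophanyl enzyme, which interferon also induces, had 227 CPM against 56.9, a ratio of 3.95 (3.05 to 5.29). In all 3 the arsenic 15 µM library was the highest of the 9. The ratios of SARS1, EPRS1 and AARS1 to control were 3.58, 3.13 and 3.07. TARS1, IARS1 and YARS1 were at 2.40, 2.27 and 2.22 times control, and the ratios of IARS1 and TARS1 dropped to 1.73 and 1.92 once trends with GC content and length were removed, under the 2-fold limit. MARS1, NARS1, LARS1 and VARS1, also of the class, had ratios of 1.49, 1.20, 1.02 and 0.743.

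The lower cytosolic pair were FARSA and FARSB, which encode the 2 subunits of the phenylalanyl enzyme. FARSA had 48.8 CPM in arsenic 15 µM against 109.0 in control, and FARSB had 23.3 CPM against 62.7. Lower mitochondrial members were HARS2, IARS2, NARS2, PARS2 and TARS2, for histidine, isoleucine, asparagine, proline and threonine. HARS2 was at 0.264 times control (0.172 to 0.399), IARS2 at 0.361 (0.272 to 0.479) and NARS2 at 0.180 (0.0598 to 0.452). NARS2 rested on 7 counts in arsenic 15 µM and 15 in control, so its interval is wide. TARS2 was no longer apart after the GC and length trends were removed. In the same library all 9 hepatocyte markers had ratios to control under 1, and 7 of them were apart and lower; the part this has in the mitochondrial values was not tested. In bulk RNA, fewer cells of a kind and less RNA per cell cannot be told apart.

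**Figure D2:**
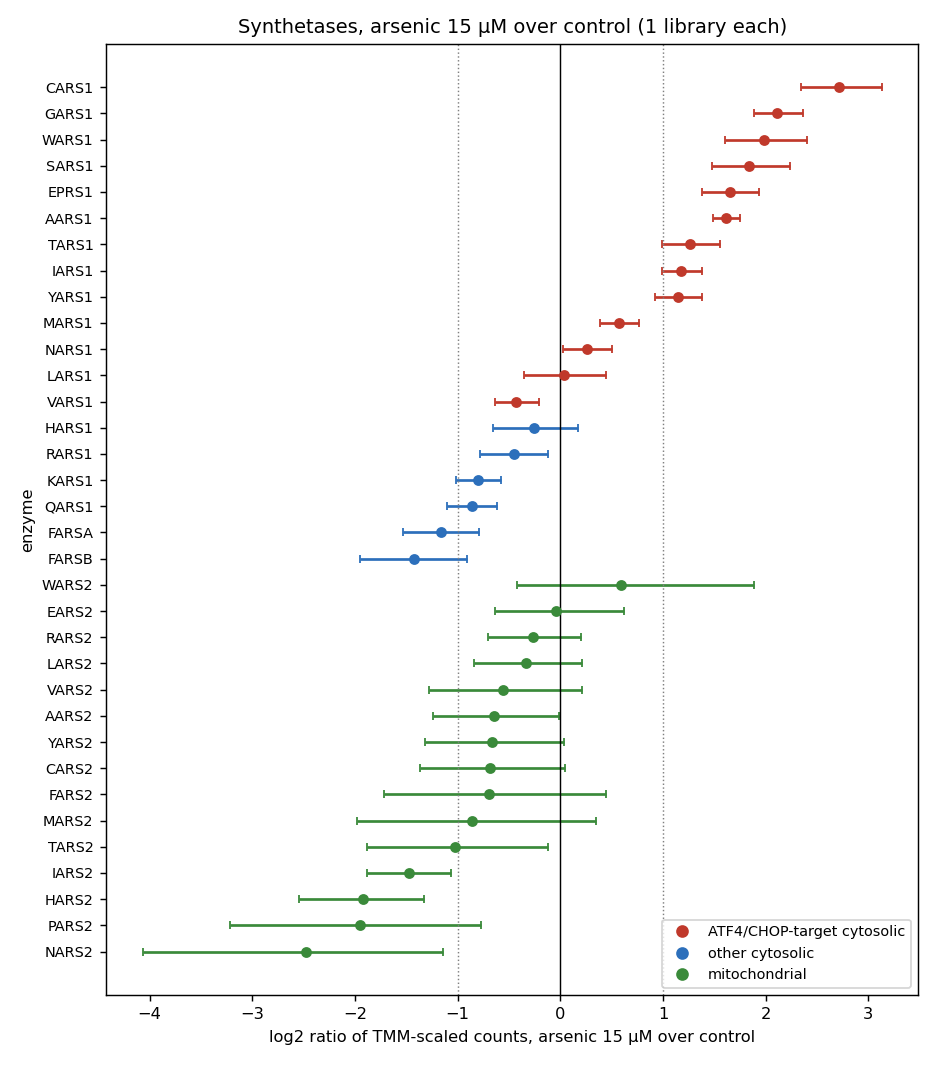
Log2 ratio of TMM-scaled counts in arsenic 15 µM over control for 34 synthetases (SARS2 left out for its few counts), with exact 95% counting intervals, grouped from top to bottom as ATF4/CHOP-class cytosolic, other cytosolic and mitochondrial; dotted lines mark a log2 ratio of 1 in either direction. CARS1 is at 2.71 at the top and NARS2 at -2.48 at the bottom.

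HARS1 and HARS2 lie head to head on chromosome 5 and their RefSeq promoter windows share 184 bases, so both starts sit within the same stretch, shown here in the direction of HARS2 (chr5:140691321-140691504, plus strand).
HARS1/HARS2: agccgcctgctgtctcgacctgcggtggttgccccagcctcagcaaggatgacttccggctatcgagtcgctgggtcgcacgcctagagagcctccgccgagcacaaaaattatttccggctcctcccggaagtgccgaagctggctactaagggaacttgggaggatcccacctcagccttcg
HARS1 had 58.5 CPM in arsenic 15 µM against 69.5 in control, and HARS2 had 14.7 against 56.0. The HARS1/HARS2 count ratio was therefore 3.18 times that of control. Exons of other genes cover 13.7% of HARS1 exon bases and 15.6% of HARS2 exon bases, and the strand setting of the counting is not stated.

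The lower arsenic dose gave a mixed picture. In arsenic 5 µM against control, 3 cytosolic genes were apart and higher (CARS1, EPRS1 and IARS1) and 3 lower (FARSA, QARS1 and RARS1), with 1 mitochondrial gene higher (WARS2) and 3 lower (CARS2, SARS2 and YARS2); the shares over all genes were 16.4% and 15.0%. IARS1 had 695 CPM against 248, a ratio of 2.80 (2.45 to 3.21). QARS1, the glutaminyl enzyme, had 66.8 CPM against 227 in control, a ratio of 0.295 (0.239 to 0.362), and FARSA had 37.9 against 109.0, a ratio of 0.348 (0.260 to 0.462). WARS2, the mitochondrial tryptophanyl enzyme, was at 3.60 times control (1.89 to 8.56) and YARS2, the tyrosyl one, at 0.343 (0.192 to 0.601). With GC and length trends removed, the values of IARS1 and FARSA were no longer apart, nor were those of CARS2, EPRS1 and SARS2. Under the same correction MARS1, WARS1, YARS1 and FARS2 became apart and higher, and FARSB, TARS1 and NARS2 apart and lower. The part of library composition beyond that was not tested. The median log2 ratio was 0.52 over the ATF4/CHOP class, -0.97 over the other cytosolic genes and -0.36 over the mitochondrial genes, and the last turned to 0.15 with those trends removed.

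Copper together with arsenic at 5 µM gave 6 cytosolic genes apart and higher than control, AARS1, CARS1, EPRS1, GARS1, SARS1 and WARS1, and 0 lower, with 0 mitochondrial genes higher and 1 lower, YARS2. Over all genes, 9.26% were apart and higher and 7.1% apart and lower. CARS1 had 182 CPM against 56.9 in control, a ratio of 3.17 (2.43 to 4.26), WARS1 had 151.3 against 56.9, a ratio of 2.64 (2.02 to 3.56), and AARS1 had 1299 against 508, a ratio of 2.56 (2.33 to 2.81). All 6 belong to the ATF4/CHOP class, whose median log2 ratio was 0.87, against -0.22 for the other cytosolic and 0.19 for the mitochondrial genes. With DESeq2 size factors 3 stayed apart and higher, and EPRS1, GARS1 and SARS1 were those that no longer were. GARS1 and SARS1 were also not apart with protein-coding TMM, nor was EPRS1 with GC and length trends removed. Against arsenic 5 µM alone, the copper library had FARSA and QARS1 higher among cytosolic genes and 0 lower, and TARS2 and SARS2 higher and WARS2 lower among mitochondrial ones, where 16.5% of all genes were higher and 13.7% lower. FARSA was at 2.95 times (2.33 to 3.79) and QARS1 at 2.59 times (2.16 to 3.13) its value with arsenic alone; neither was apart with GC and length trends removed. TARS2 was at 3.29 times (2.11 to 5.48) and WARS2 at 0.478 times (0.319 to 0.702), and WARS2 was also not apart under that correction. The correction also made RARS1 and NARS2 apart and higher, and VARS1, FARS2 and PARS2 apart and lower.

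Between the arsenic doses, 15 µM against 5 µM, 6 cytosolic genes were apart and higher (AARS1, CARS1, GARS1, SARS1, TARS1 and WARS1) and 0 lower, while 1 mitochondrial gene was higher (SARS2) and 7 lower (FARS2, HARS2, IARS2, MARS2, NARS2, PARS2 and WARS2). Over all genes the shares were 19.6% and 17.5%. GARS1 was at 3.93 times (3.53 to 4.40), SARS1, the seryl enzyme of the cytosol, at 3.49 times (2.92 to 4.20) and TARS1, the threonyl one, at 3.14 times (2.71 to 3.67). IARS2 was at 0.192 times (0.152 to 0.237) and HARS2 at 0.378 times (0.253 to 0.549). With GC and length trends removed, AARS1, CARS1, WARS1, NARS2 and WARS2 were no longer apart between the doses. Under that correction RARS1 became apart and higher, and VARS1, AARS2, LARS2 and VARS2 apart and lower. In dose order, GARS1 had 151.5 CPM in control, 167 at 5 µM and 658 at 15 µM. SARS1 had 62.7, 64.6 and 226 CPM at the same steps, and CARS1 had 56.9, 154.0 and 376.5. Among these libraries GARS1 and SARS1 thus differed from control mainly at the higher dose. In arsenic 5 µM with copper they had 323 and 128 CPM. The arsenic 5 µM library is also among those that stood apart in composition.

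**Figure D3:**
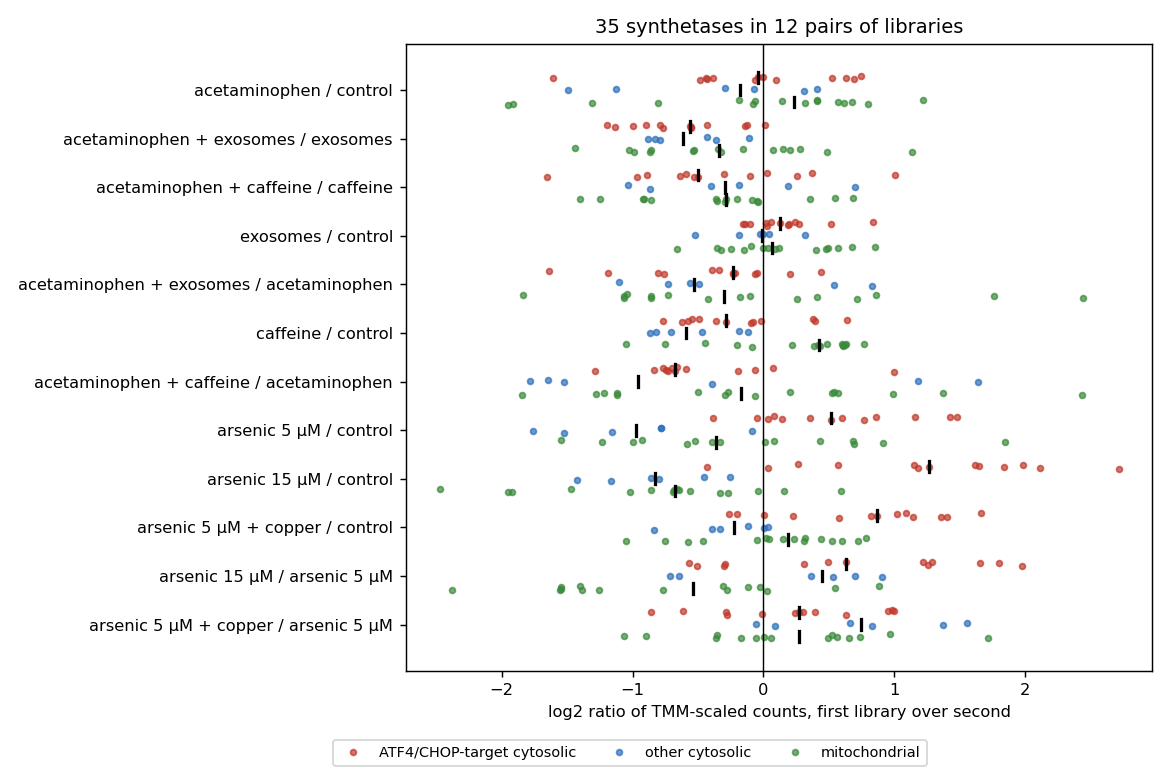
Log2 ratio of TMM-scaled counts, first-named library over second, for 35 synthetases in 12 pairs, with 1 point per gene, a black bar at each class median and 3 rows per pair: ATF4/CHOP-class cytosolic (top), other cytosolic and mitochondrial. SARS2 points of pairs with arsenic 5 µM lie outside the axis and are not drawn; the arsenic 15 µM over control medians are 1.26, -0.83 and -0.67.

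The balance of the compartments can be read within each library, where scaling between libraries has no part. Cytosolic genes took 95.4% of all synthetase counts in arsenic 15 µM (95.1% to 95.7%, exact binomial) against 86.5% in control (85.3% to 87.6%). The share was 87.9% in arsenic 5 µM and 90.4% with copper. It was 81.1% in acetaminophen, 83.8% with exosomes added and 85.9% with caffeine added, and 85.7% in exosomes and 82.0% in caffeine. The interval of arsenic 15 µM lay above those of the other 8 libraries, and that of arsenic with copper lay above that of control. Those of acetaminophen, caffeine and acetaminophen with exosomes lay below that of control. The last did so narrowly, with an upper bound of 85.31% against a lower bound of 85.35% in control. As a count ratio, cytosolic over mitochondrial, arsenic 15 µM was at 20.9 and control at 6.40. Both sides of the ratio differed: cytosolic genes made up 0.661% of protein-coding counts in arsenic 15 µM against 0.444% in control, and mitochondrial genes 0.0316% against 0.0695%. Leaving out the most abundant gene of each class, AARS1 and IARS2, gave 94.7% for arsenic 15 µM and 87.1% for control.

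**Figure D4:**
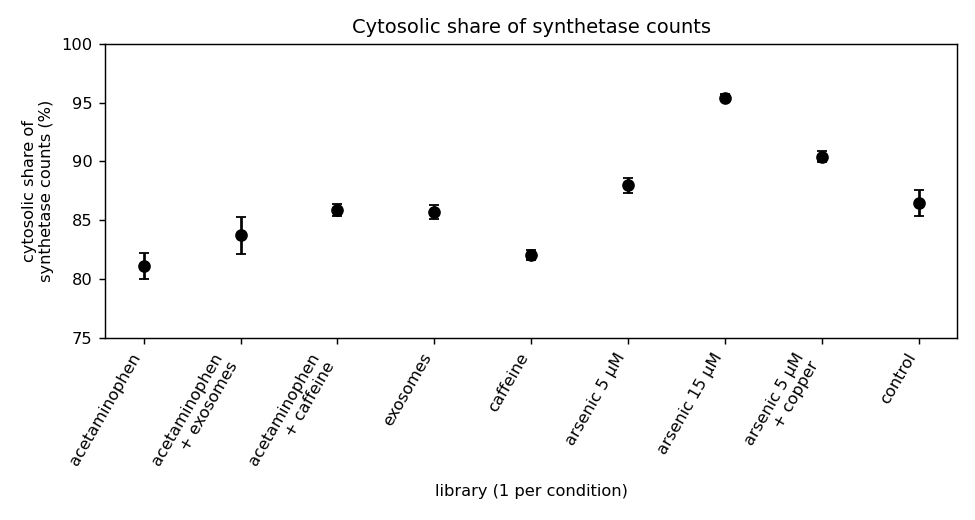
Cytosolic share of all synthetase counts (percent) in each library with exact 95% binomial intervals, on an axis that starts at 75%. Arsenic 15 µM, at 95.4%, lies above all others, and control is at 86.5%.

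Enzymes for the same amino acid were then set against each other in 16 partner pairs, with the cytosolic over mitochondrial count ratio of 1 library divided by that of another. In arsenic 15 µM against control, 14 of 16 ratios were higher, 12 of them with an interval above 1, and the median was 3.21-fold. EPRS1/PARS2 was at 12.1 times the ratio in control, CARS1/CARS2 at 10.5, NARS1/NARS2 at 6.67 and IARS1/IARS2 at 6.28. PARS2 had 11 counts in arsenic 15 µM and 16 in control, and NARS2 had 7 and 15. The log2 intervals were 2.48 to 4.72 for EPRS1/PARS2 and 1.46 to 4.02 for NARS1/NARS2. EPRS1 is the cytosolic partner of both EARS2 and PARS2, so it enters the tally more than once. FARSA/FARS2 and RARS1/RARS2 were the lower ones, at 0.722 and 0.877 times, both with intervals that included 1. In arsenic 5 µM 12 of 16 were higher, 7 with an interval above 1 and 3 below, with a median of 1.55; in arsenic with copper 11 were higher, 5 above and 1 below, with a median of 1.36. Leaving out the seryl pair, which rests on SARS2, gave 13 of 15 higher for arsenic 15 µM and 11 of 15 for arsenic 5 µM. Acetaminophen against control had 7 higher and 9 lower with a median of 0.983, and caffeine against control 3 higher and 13 lower with a median of 0.700.

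**Figure D5:**
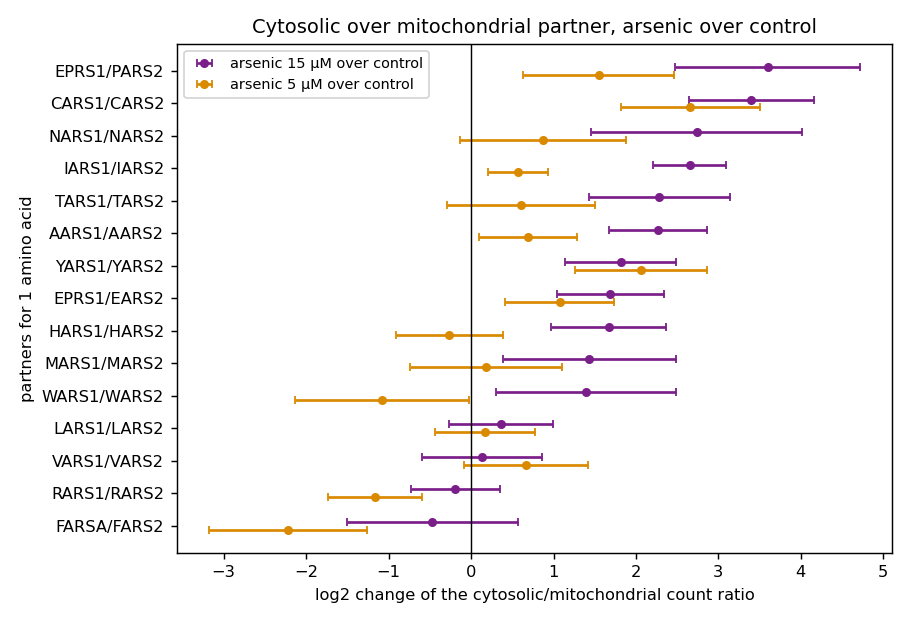
Log2 change of the cytosolic over mitochondrial count ratio for 15 partner pairs (the seryl pair left out), arsenic 15 µM over control (purple, upper point) and arsenic 5 µM over control (orange, lower point), with 95% counting intervals. EPRS1/PARS2 is at the top with 3.60 for arsenic 15 µM and FARSA/FARS2 at the bottom with -0.47.

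Acetaminophen was present in 3 libraries, each with a counterpart that lacked it. In acetaminophen against control, 0 cytosolic genes were apart and higher and 3 lower (FARSA, QARS1 and VARS1), with IARS2 higher and CARS2 and YARS2 lower among mitochondrial genes, where 13% of all genes were higher and 12.1% lower. With exosomes in both libraries, CARS1, VARS1 and EARS2 were lower and 0 were higher (5.22% and 5.17% of all genes higher and lower); CARS1 and EARS2 were not apart with DESeq2 size factors or with GC and length trends removed. With caffeine in both, AARS1 was higher and FARSB, VARS1, IARS2 and SARS2 were lower (12.6% of all genes higher and 13% lower). VARS1, the valyl enzyme, was the member lower in all 3: it had 85.6 CPM in acetaminophen against 261.5 in control, 116 against 266 with exosomes and 56.9 against 179.5 with caffeine. Those ratios were 0.328 (0.262 to 0.407), 0.437 (0.346 to 0.540) and 0.318 (0.279 to 0.359). With GC and length trends removed, the first was 0.661 and no longer apart, and the others 0.419 and 0.244; VARS1 transcripts have 62.6% GC.

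Base composition is given beside the other acetaminophen values. FARSA (60.3% GC) had 38.6 CPM in acetaminophen against 109.0 in control and QARS1 (55.2% GC) 104 against 227, while IARS2 (43.8% GC) had 234 against 100.4. None of these 3 was apart once the trends were removed, with ratios of 0.799, 0.633 and 1.45. YARS2, at 0.266 times control (0.117 to 0.528), and CARS2, the mitochondrial cysteinyl enzyme, at 0.259 (0.109 to 0.530), stayed apart, on 11 and 10 counts in acetaminophen. FARS2 and TARS2 became apart and higher with the trends removed, and NARS1 and TARS1 apart and lower. Over 34 genes, without SARS2, the correlation between GC content and log2 ratio was -0.463 in acetaminophen over control and -0.053 in arsenic 15 µM over control, as a description across genes that share libraries. After the trends were removed it was 0.310 and -0.018 in these pairs, 0.353 in arsenic 5 µM over control and -0.471 in arsenic with copper over arsenic 5 µM.

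In acetaminophen with caffeine AARS1 had 966 CPM against 482 in caffeine alone, a ratio of 2.00 (1.92 to 2.09), which was not apart with the trends removed. FARSB, VARS1 and IARS2 were at 0.488, 0.318 and 0.421 times caffeine alone, and FARSB was not apart with DESeq2 size factors or with the trends removed. YARS1, LARS2 and TARS2 became apart and lower with the trends removed. Set against acetaminophen alone, the same library had FARSA, QARS1, AARS2 and CARS2 higher and 9 genes lower, FARSB, KARS1, LARS1, RARS1, HARS2, IARS2, LARS2, RARS2 and TARS2, where 18.8% of all genes were higher and 15.0% lower. KARS1 was at 0.319 times (0.283 to 0.360), IARS2 at 0.278 (0.239 to 0.324), HARS2 at 0.413 (0.319 to 0.537) and FARSB at 0.291 (0.214 to 0.395). QARS1 was at 3.12 times (2.64 to 3.73) and CARS2 at 5.41 times (3.02 to 11.99). In that pair FARSA, QARS1, AARS2, FARSB, LARS1, RARS1 and RARS2 were no longer apart with the trends removed. WARS2 then became apart and higher, and MARS1, VARS1, WARS1, YARS1 and FARS2 apart and lower. Acetaminophen with exosomes against acetaminophen alone had CARS1, KARS1, LARS1, HARS2, IARS2 and LARS2 lower and YARS2 and SARS2 higher (8.89% of all genes lower and 10.2% higher); KARS1, LARS1, IARS2, LARS2 and SARS2 were not apart with the trends removed, and IARS2 and LARS2 were also not apart with DESeq2 size factors or protein-coding TMM. CARS1 was at 0.321 (0.193 to 0.494), HARS2 at 0.279 (0.147 to 0.470) and YARS2 at 3.39 (1.59 to 7.94), the last on 21 against 11 counts. FARS2 became apart and lower with the trends removed.

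In exosomes and in caffeine alone few members stood apart from control. In exosomes, 0 of 35 were apart in either direction, where 3.58% of all genes were higher and 1.44% lower. In caffeine 0 were higher and YARS2 was lower, at 0.483 times (0.328 to 0.750), where 11.6% were higher and 8.63% lower. FARSB and HARS1 were also apart and lower with DESeq2 size factors or with GC and length trends removed. The medians in caffeine were -0.36 for cytosolic and 0.42 for mitochondrial genes on the log2 scale, with 3 of 19 and 11 of 16 genes above control. Exosome medians were 0.04 for cytosolic and 0.06 for mitochondrial genes, and both changed sign under other scalings.

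A model over all 9 libraries, which takes each agent as an additive term and treats departures from additivity as error, called 0 of 35 members for any agent (edgeR quasi-likelihood test, Benjamini-Hochberg adjusted p under 0.05 over all genes). Its arsenic term took all arsenic libraries together, and copper had no term of its own. Differences between arsenic doses, or with copper, therefore counted as error too, except where a further term took them up. It called 0.0219% of all genes for acetaminophen, 0.0% for exosomes, 0.0823% for caffeine and 0.494% for arsenic. A further term called 1.09% of genes for 15 µM beyond 5 µM of arsenic, while those for copper beyond arsenic and for acetaminophen with exosomes or with caffeine beyond the sum called 0.0% each. DESeq2 called 0 members in every term as well. Of all genes it called 49 for acetaminophen, 51 for caffeine, 170 for arsenic and 96 for the further 15 µM term, and 0 in the other terms. VARS1 was the member at an unadjusted edgeR p under 0.05 for acetaminophen, CARS1 for arsenic and TARS2 for copper. For the further 15 µM term IARS2 and NARS2 were, and the other terms had 0 members. Among all 18237 genes, 975 were under 0.05 for acetaminophen, 1671 for arsenic, 1846 for the further 15 µM term and 428 for copper. The share of members was lower than that of all genes in each of these terms except copper, where it was slightly higher. CARS1 had an arsenic coefficient of 1.67 on the log2 scale (SE 0.770, edgeR adjusted p = 0.497), VARS1 an acetaminophen coefficient of -1.49 (SE 0.566, edgeR adjusted p = 0.641), and IARS2 a 15 µM coefficient of -2.01 (edgeR adjusted p = 0.382). In the arsenic term 11 of 13 genes of the ATF4/CHOP class had positive coefficients, as did 0 of 6 other cytosolic and 3 of 16 mitochondrial genes. Of all 18237 genes tested, 9571 had positive coefficients in that term. These are counts of signs of coefficients that were not called for any member.

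Genes around the synthetases were read in the same pairs. Of 21 genes of the ATF4 amino-acid response, 19 were apart and higher in arsenic 15 µM than in control and 0 lower, with a median log2 ratio of 3.16. Over all genes tested, 16.5% were higher and 14.4% lower in that pair. SESN2, a stress sensor upstream of mTORC1, was at 63.8 times control (46.5 to 93.0), ATF3, a transcription factor induced by ATF4, at 69.9 times (38.8 to 162) and CHAC1, which degrades glutathione, at 35.8 times (20.8 to 75.1). In the model CHAC1, SESN2, SLC7A11 and ATF3 were called higher for arsenic (edgeR adjusted p = 0.014 to 0.017), and the 17 other genes of the list were not. In arsenic 5 µM 12 of 21 were apart and higher and 2 lower, where 16.4% of all genes were higher and 15.0% lower. With copper 18 were higher and 0 lower, where 9.26% of all genes were higher and 7.1% lower. In acetaminophen with caffeine against caffeine, 9 were higher and 0 lower, where 12.6% of all genes were higher and 13% lower. ASNS, asparagine synthetase, had a ratio of 4.90 (4.50 to 5.35) in that pair.

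PPP1R15A, the stress-induced subunit that directs dephosphorylation of eIF2, was at 59.96 times control in arsenic 15 µM (44.4 to 85.5). Of the 3 scaffold proteins of the multisynthetase complex, AIMP2 was lower in arsenic 15 µM (0.359, 0.244 to 0.527), while AIMP1 and EEF1E1 had intervals that included 1. Among 7 synthetase genes of that complex, 2 were apart and higher, EPRS1 and IARS1, and 0 lower. Over all genes tested, 16.5% were apart and higher and 14.4% apart and lower in arsenic 15 µM against control. The mitochondrial partners of the synthetases included GATC, a subunit of the amidotransferase that completes glutaminyl-tRNA there, at 0.2503 times control (0.123 to 0.486), and MTFMT, which formylates the initiator methionyl-tRNA, at 0.193 (0.0572 to 0.535). All 4 genes of that group had ratios under 1. Of 8 mitochondrial translation factors, MTIF3 and TUFM were lower, at 0.124 and 0.469 times, and GFM2 was higher, at 2.93 times. The interferon list had 1 of 9 measured genes apart and higher in arsenic 15 µM, MX1, and 2 lower, CXCL10 and GBP2, near those shares. Any part of interferon in the WARS1 value was not tested.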

How the data were processed

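The deposited files hold whole-number read counts per Ensembl gene, made by the authors from Ion Torrent Proton reads with TopHat2 2.0.13 and HTSeq 0.6.1 on GRCh37, per the submitters' processing notes. Annotation release and strand setting: not given in the sources used here. The 5 HTSeq summary lines, 42.3% to 70.3% of each file's counts, name no gene and were left out. Depth was 658725 to 8227906 counts on genes. Symbols were matched through a reference list of gene names. GENCODE 29 (GRCh38) was used for gene types, positions, exon overlap, transcript length and GC content. All 35 members matched 1 identifier each.

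Genes with at least 1 CPM in 2 libraries were tested in edgeR 4.0.16 (R 4.3.3, limma 3.58.1) with TMM scaling. Terms were acetaminophen, exosomes, caffeine and arsenic, the last without regard to dose or copper. They left 4 residual degrees of freedom, or 3 with a further term. Replicate spread is thus estimated from departures from additivity and from differences among the arsenic libraries. DESeq2 1.42.0 was an alternative. Library pairs were compared with exact conditional binomial 95% intervals, with 0.5 prior counts in the point ratios; lowess trends on GC content and length were removed as an alternative. Intervals and the 3-count floor cover counting error only. Tables were made in Python with scipy, pandas and statsmodels.

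Members and lists were chosen with earlier results of these data known. All 35 members are accounted for; values in every library are given for the 4 cytosolic and 4 mitochondrial genes with the highest mean and for genes past the edgeR threshold, and ratios for up to 3 apart genes per class and pair, by the interval bound nearest to 1, with up to 3 genes of each other list in arsenic and acetaminophen pairs. Other genes named in the text were chosen after their values were seen.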

Additional observations from a re-analysis of the deposited data

How the results depend on the processing

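No paired analysis was possible because each condition had 1 library and so no replicate number pairs samples; the additive model itself compares acetaminophen within 3 backgrounds. The count of members called was 0 of 35 for every term under every alternative run: DESeq2 size factors, no filter on low counts, DESeq2, TMM on protein-coding genes, leaving out each library in turn (0 to 0), and leaving out acetaminophen and arsenic 5 µM together, which was chosen after seeing the data. Terms that lose their only contrast when a library is left out were not run. The counts of members apart, 24 over the 12 pairs, were otherwise within 1.5 times of those reported. With GC and length trends removed, 2 were higher in acetaminophen than control and 3 lower in caffeine than control; 0 were higher in acetaminophen with caffeine than caffeine, and 2 than acetaminophen. For acetaminophen with exosomes, 1 was lower than exosomes, 1 higher and 3 lower than acetaminophen, and 3 were lower in arsenic with copper than arsenic 5 µM. With DESeq2 size factors, 1 was lower in acetaminophen with exosomes than exosomes, 3 lower in caffeine than control, and 3 higher in arsenic with copper than control. Of 54 named ratios apart, 35 kept that call under every alternative; 19 lost it with GC and length trends removed, 4 with DESeq2 size factors and 2 with protein-coding TMM; the cause was not tested.

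The cytosolic share per transcript length was 84.2% in exosomes, 80.8% in caffeine, 84.4% in acetaminophen with caffeine, 86.5% in arsenic 5 µM, 94.7% in arsenic 15 µM, 89.4% with copper and 84.9% in control. Without AARS1 and IARS2 it was 84.6% in acetaminophen, 87.1% in exosomes, 83.5% in caffeine, 82.0% in acetaminophen with caffeine, 90.3% in arsenic 5 µM, 94.7% in arsenic 15 µM and 89.6% with copper. Without KARS1 and GARS1 it was 78.0% in acetaminophen, 81.8% with exosomes, 84.9% with caffeine, 83.8% in exosomes, 80.1% in caffeine, 86.7% in arsenic 5 µM, 94.8% in arsenic 15 µM, 89.2% with copper and 84.7% in control. Arsenic 15 µM was the highest library under each. Class medians changed sign in exosomes over control, to -0.12 (DESeq2 size factors), -0.051 (protein-coding TMM) and -0.025 (trends removed) for cytosolic genes, -0.10 and -0.028 (DESeq2 size factors and protein-coding TMM) for mitochondrial genes and -0.040 (DESeq2 size factors) for the ATF4/CHOP class. With trends removed the mitochondrial median was 0.15 in arsenic 5 µM over control and -0.32 in arsenic with copper over arsenic 5 µM.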
